A study of Homo sapiens with 24 samples.

Results

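The G1 cyclins, their kinases and the inhibitors CDKN1A and CDKN1B were followed in A549, an established line of human lung cancer cells. The set was chosen by name and not by a rule on expression, but with earlier results of these data known. It holds 10 of the 58302 genes in the deposited table: the D cyclins CCND1, CCND2 and CCND3, the E cyclins CCNE1 and CCNE2, the kinases CDK4, CDK6 and CDK2, and the inhibitors CDKN1A and CDKN1B. Polyadenylated RNA was sequenced from 4 groups of 3 libraries. Cells had received a blank lentivirus (vector cells) or a lentivirus for GPD1, the cytosolic glycerol-3-phosphate dehydrogenase (GPD1 cells), and each was grown in medium with 10 mM metformin, a biguanide drug against diabetes known to act on mitochondrial complex I, or without it. All 4 groups had thus been through lentiviral transduction. The question behind the design was what GPD1 does to growing cancer cells, and whether metformin changes that. For the promoter that drove GPD1, the number of clones and the hours of treatment, the sources used here give nothing. The labels do not say that the replicates were separate cultures, so the p-values reflect the spread among these libraries only, and that spread may be technical. A further 12 libraries of 786-O kidney cancer cells were not analysed here.

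Entry into the cell cycle is governed by the restriction point in G1. D cyclins bind CDK4 or CDK6 in response to growth signals, E cyclins bind CDK2 later in G1, and both kinases phosphorylate the retinoblastoma protein RB1, which releases the E2F factors that switch on the genes of DNA replication. CDKN1A (p21) and CDKN1B (p27) inhibit the CDK2 complexes and also act as assembly factors for cyclin D with its kinases. CDKN1A is induced by several stress pathways, and both inhibitors rise in many cells that leave the cycle. A549 cells lack the inhibitors CDKN2A and CDKN2B through a deletion on chromosome 9.

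The values are read as FPKM, read fragments per kilobase of exon scaled to library size, and low values moved in steps that correspond to 13.3 to 18.0 M (1e6) reads per library. One read on 1 kb of exon was therefore worth 0.0557 to 0.0753 FPKM. GPD1 itself had mean FPKM of 0.0770 and 0.0538 in vector cells without and with metformin, and of 15.8 and 13.5 in GPD1 cells. CDKN2A and CDKN2B were listed at 0 in all 12 libraries. Of 5 epithelial genes, 3 had a mean of at least 1 FPKM, the highest being 127 (KRT18), whereas 0 of 5 lung lineage genes did. The highest mean of a blood or endothelial gene was 0.0112 FPKM, and of 5 kidney lineage genes 2 reached 1 FPKM. Among fibroblast genes COL1A1 had a mean of 3.57 FPKM, and MTAP, next to CDKN2A and listed with the genes deleted in A549, was above 0 in all 12 libraries (0.189 to 0.602 FPKM). Transcripts of the mitochondrial genome took 10.9% to 12.8% of the reads without metformin and 5.69% to 6.72% with it, and 30.2% to 33.2% and 10.3% to 14.9% of the summed FPKM. Such a shift in reads moves every other gene on this scale, and the part of it in the members' changes was not tested. The tests of members and listed genes that averaged at least 1 FPKM were recomputed under 4 other scalings. This was not done for the FPKM levels, the overlap of libraries or the likeness of patterns. Nor was it done for CCNE2 and for MKI67, a marker of cycling cells.

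Of the 10 members, 8 averaged 1 FPKM or more across the 12 libraries and were tested. In vector cells metformin was accompanied by higher levels of both inhibitors and by lower levels of CCND1, CCND3, CDK4, CDK6 and CDK2, while CCNE1 did not pass the test. In GPD1 cells CDKN1A also rose, by more, and CDK6, CDK2, CCNE1, CCND1 and CDK4 fell, but CDKN1B and CCND3 did not pass. The tests were made with limma on log2(FPKM + 1), with Benjamini-Hochberg adjustment over 12607 genes. These calls have to be read against a background in which most genes moved. In vector cells 31.3% of all tested genes were called higher with metformin and 43.3% lower, against 2 and 5 of the 8 members. In GPD1 cells 26.1% were called higher and 48% lower, against 1 and 5 of the 8. The members' share called is therefore near that of all genes, and the counts alone say little about them. In these bulk libraries fewer cells in a phase of the cycle and less RNA of a gene per cell cannot be told apart.

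**Figure D1:**
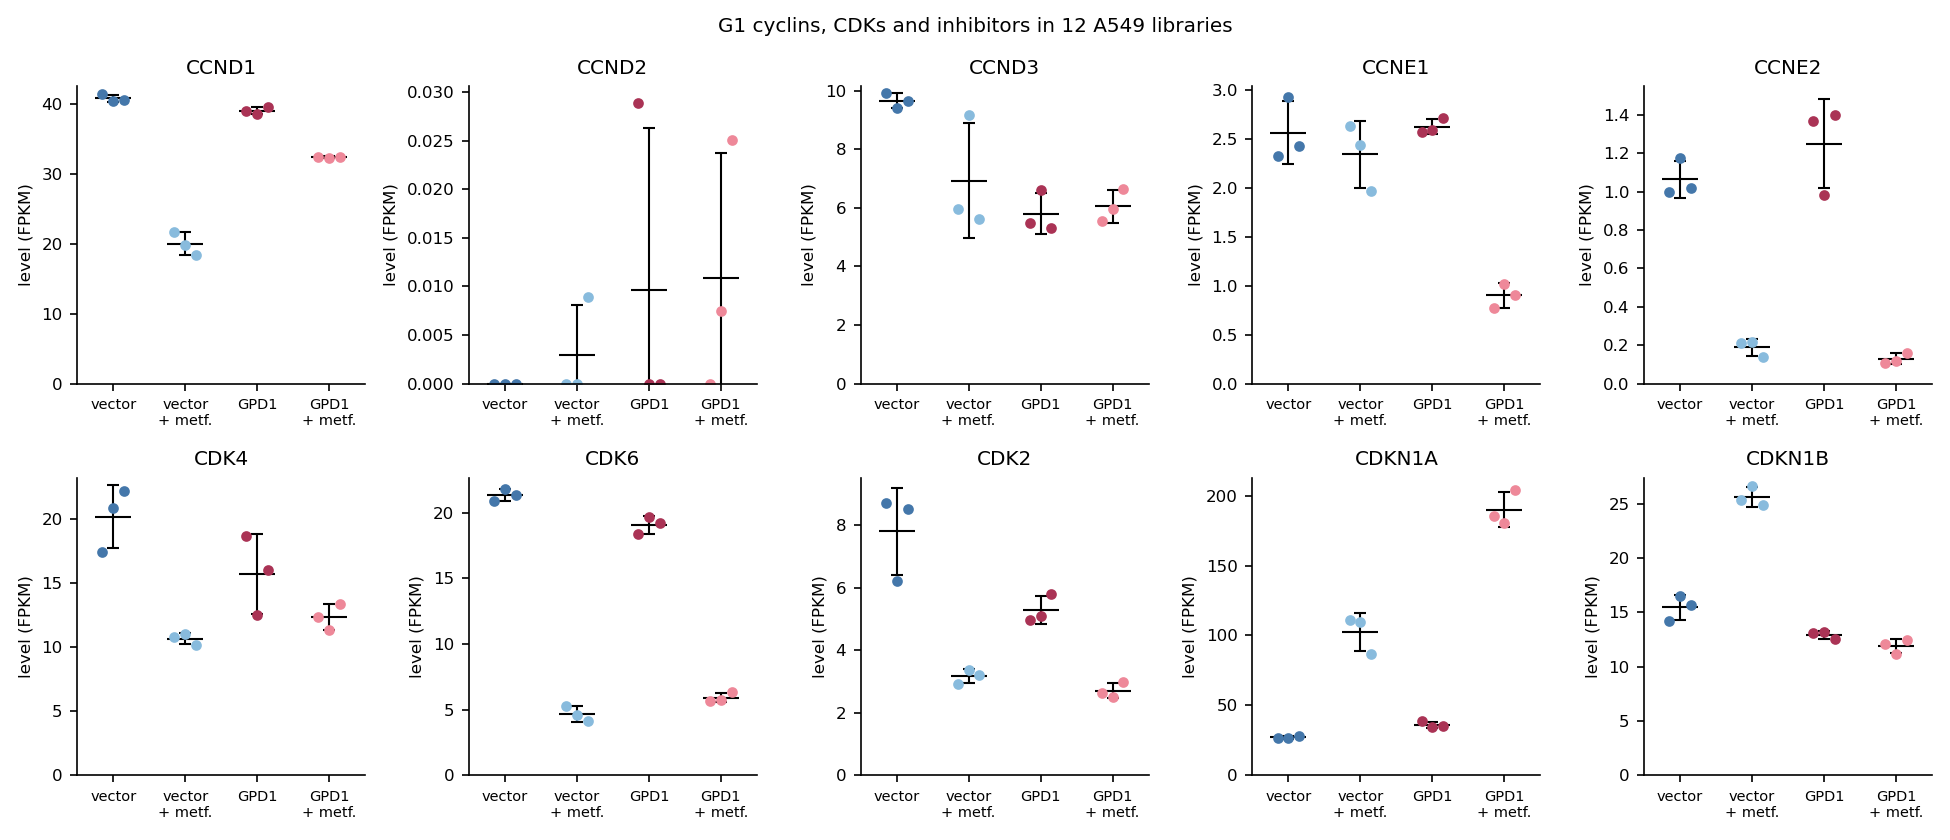
FPKM of the 10 members in each of the 12 libraries (points, linear axes) with the group mean (wide line) and SD (bars), for vector cells and GPD1 cells without and with metformin. CDK6 fell to 4.66 and 5.91 FPKM with metformin, CDKN1A rose to 103 and 190, and CDKN1B was highest in the vector cells with metformin (25.7).

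CCND1 (ENSG00000110092, chr11:69641087-69654474, GRCh38) encodes cyclin D1, the growth-factor-induced partner of CDK4 and CDK6. It was the most abundant D cyclin in every library. In vector cells it had 41.5, 40.5 and 40.6 FPKM without metformin and 21.7, 19.9 and 18.5 with it. GPD1 cells had 39.0, 38.6 and 39.6 FPKM without metformin and 32.4, 32.3 and 32.5 with it. The 4 groups did not overlap, and their order from high to low was vector untreated, GPD1 untreated, GPD1 with metformin and vector with metformin. The mean thus went from 40.9 ± 0.519 to 20.0 ± 1.64 FPKM (SD, n = 3) in vector cells, 2.04-fold lower (log2 fold change -0.996, SE 0.05, limma adjusted p = 1.7e-08). In GPD1 cells it went from 39.1 ± 0.491 to 32.4 ± 0.091 FPKM, 1.21-fold lower (log2 fold change -0.26, SE 0.05, limma adjusted p = 6.4e-04). That smaller fall depended on the scaling. The log2 fold change was 0.06 (adjusted p = 0.26) with median-ratio factors and a rise of 0.20 (adjusted p = 0.0019) with upper-quartile factors. The difference between the 2 falls did not turn: the change with metformin was higher in GPD1 cells by 0.73 on the log2 scale (SE 0.07, limma interaction adjusted p = 1.7e-05). With metformin, CCND1 was accordingly 1.62-fold higher in GPD1 cells than in vector cells (log2 fold change 0.67, adjusted p = 8.9e-07), whereas without metformin the difference was -0.06 (adjusted p = 0.427).

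CCND3 (ENSG00000112576, chr6:41934933-42050357), which encodes cyclin D3, was the second D cyclin in level. It stood at 9.91, 9.42 and 9.65 FPKM in untreated vector cells and at 5.95, 9.18 and 5.62 with metformin. The GPD1 libraries were at 5.48, 6.60 and 5.30 FPKM without metformin and at 5.54, 5.94 and 6.65 with it. The untreated vector libraries lay above all others, and the 3 remaining groups overlapped. The clearest difference was between the untreated groups, where the mean was 1.67-fold lower in GPD1 cells (log2 fold change -0.65, limma adjusted p = 0.0079). In vector cells the fall with metformin was -0.46 (SE 0.14, limma adjusted p = 0.0136). That call was lost without replicate 1 (adjusted p = 0.0545) or replicate 3 (0.0586) of the vector cells with metformin, and with median-ratio (-0.23, adjusted p = 0.191) or upper-quartile factors (-0.22, adjusted p = 0.211). Replicate 2 of that group, at 9.18 FPKM, stood near the untreated libraries. The interaction, 0.51 with an adjusted p of 0.0609, passed without that library (0.71, adjusted p = 0.0012) and without GPD1 untreated replicate 2 (0.59, 0.0458). With all libraries kept it passed under median-ratio (0.57, 0.0492) and upper-quartile factors (0.69, 0.0218) and with the length trend removed (0.55, 0.0447).

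CCND2, the third D cyclin (ENSG00000118971), was close to absent from the table. It was listed at 0 in the 3 untreated vector libraries and reached at most 0.0288 FPKM in any library, so no test was made. CCND1 made up 80.7% to 81.1% of the summed D cyclin FPKM in untreated vector cells and 68.4% to 78.5% in vector cells with metformin. In GPD1 cells its share was 85.4% to 88.2% without metformin and 83.0% to 85.4% with it. The D cyclin pool of these cells was thus mostly cyclin D1 transcript in all groups.

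CCNE1 (ENSG00000105173, chr19:29811898-29824308) encodes cyclin E1, the activating partner of CDK2 at the end of G1. It had 2.33, 2.94 and 2.43 FPKM in untreated vector cells and 2.63, 2.44 and 1.97 with metformin. In untreated GPD1 cells it had 2.57, 2.59 and 2.72 FPKM, and with metformin 0.776, 1.02 and 0.905. The first 3 groups overlapped, and the 3 GPD1 libraries with metformin lay below all 9 others. The mean in GPD1 cells fell 2.92-fold, from 2.63 ± 0.078 to 0.901 ± 0.124 FPKM (SD, n = 3). On the log2(FPKM + 1) scale, which shrinks changes at such low levels, the change was -0.93 (SE 0.09, limma adjusted p = 3.2e-06). In vector cells the difference was -0.09 (adjusted p = 0.361), and it followed the scaling: 0.09 with both median-ratio and upper-quartile factors, and a called fall of -0.35 (adjusted p = 0.0042) with summed FPKM without mitochondrial genes. The change with metformin differed between the cells by -0.84 (SE 0.13, limma interaction adjusted p = 3.3e-04). With metformin CCNE1 was 2.60-fold lower in GPD1 cells than in vector cells (log2 fold change -0.81, adjusted p = 1.7e-05). CCNE1 was thus the reverse of CCND1 in the interaction: the change of cyclin D1 transcript was lower in vector cells and that of cyclin E1 transcript in GPD1 cells.

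The 250 bases before the start of CCNE1, shown because this gene moved in 1 of the 4 groups, come from RefSeq (chr19:29811741-29811990, plus strand, GRCh38.p14). Capitals mark GC boxes, the binding motif of SP1 and its relatives (GGGCGG, or CCGCCC for the other strand).
CCNE1: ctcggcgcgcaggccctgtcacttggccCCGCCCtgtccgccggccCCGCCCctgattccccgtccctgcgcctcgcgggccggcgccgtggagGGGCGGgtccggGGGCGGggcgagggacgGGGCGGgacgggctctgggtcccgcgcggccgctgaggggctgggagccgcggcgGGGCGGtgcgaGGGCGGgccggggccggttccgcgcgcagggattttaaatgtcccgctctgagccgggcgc
The window held 7 GC boxes, and 81.2% of its bases were G or C. GGGCGG was found 1 or more times on either strand in 42.6% of the 35116 RefSeq promoters of this length. That share says nothing on how rare 7 boxes are. SP1, for its part, rose in vector cells with metformin from 13.6 to 25.7 FPKM (limma adjusted p = 2.9e-07), and with metformin it was lower in GPD1 cells, at 16.5 FPKM (adjusted p = 1.0e-05). The part of SP1 in the changes of CCNE1 was not tested.

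CCNE2 (ENSG00000175305) encodes cyclin E2, a close relative of cyclin E1 and an E2F target. Its mean of 0.658 FPKM kept it out of the main test. It had 0.999, 1.17 and 1.02 FPKM in untreated vector cells and 0.210, 0.217 and 0.139 with metformin. For GPD1 cells the values were 1.37, 0.985 and 1.40 FPKM without metformin and 0.107, 0.117 and 0.161 with it. Treated and untreated libraries did not overlap in either kind of cell, while vector and GPD1 libraries overlapped within each treatment. By the steps between low values, the treated libraries held about 6.86 to 17.1 reads of CCNE2 and the untreated ones 59.6 to 96.4. In the fit without a filter on low values (35437 genes), CCNE2 was lower with metformin in vector cells (log2 fold change -0.80, limma adjusted p = 2.0e-05) and in GPD1 cells (-0.99, adjusted p = 4.6e-06). In that fit 25.4% and 26.4% of genes were called lower. INTS8, which overlaps CCNE2 on the other strand, had a mean of 3.56 FPKM, and reads of the 2 genes cannot be separated without strand. The ratio of CCNE2 to CCNE1 within a library was 0.399 to 0.429 in untreated vector cells and 0.071 to 0.089 with metformin, and in GPD1 cells 0.380 to 0.531 and 0.114 to 0.178. The 2 E cyclins therefore moved differently: CCNE2 was low with metformin in both kinds of cell, and CCNE1 lay below all other libraries in GPD1 cells with metformin.

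CDK6 (ENSG00000105810, chr7:92604921-92836594) is a cyclin D-dependent kinase that phosphorylates RB1. It had 20.9, 21.8 and 21.4 FPKM in untreated vector cells and 5.30, 4.58 and 4.10 with metformin. GPD1 cells had 18.4, 19.7 and 19.3 FPKM without metformin and 5.64, 5.76 and 6.31 with it. The 4 groups did not overlap. The fall was 4.59-fold in vector cells (log2 fold change -1.99, SE 0.07, limma adjusted p = 1.5e-09) and 3.24-fold in GPD1 cells (-1.54, adjusted p = 1.3e-08). Among all tested genes 1.23% fell by more in vector cells and 3.22% in GPD1 cells. The fall was smaller in GPD1 cells by 0.45 (SE 0.10, limma interaction adjusted p = 0.0043), and with metformin CDK6 was 1.27-fold higher in them (log2 fold change 0.29, adjusted p = 0.0046). CDK6 had the largest fall of the 8 tested members in both kinds of cell and under all 5 scalings. CCNE2, outside that test, fell by more as a fold of FPKM. Its mean went from 1.06 to 0.189 FPKM in vector cells and from 1.25 to 0.128 in GPD1 cells.

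CDK4 (ENSG00000135446, chr12:57747727-57756013) shares its cyclin partners and its main substrate with CDK6. It had 17.5, 20.8 and 22.2 FPKM in untreated vector cells and 10.8, 11.0 and 10.2 with metformin, 1.89-fold lower on average (log2 fold change -0.85, limma adjusted p = 1.1e-04). In GPD1 cells it had 18.7, 12.5 and 16.1 FPKM without metformin and 12.4, 11.3 and 13.4 with it, and these 2 groups overlapped. Their difference of -0.31 (SE 0.13, limma adjusted p = 0.0472) was not called under median-ratio (0.00, adjusted p = 0.993) or upper-quartile factors (0.14, 0.349), nor when the untreated GPD1 replicate 1 was left out (-0.19, 0.191). It was also lost without any 1 of 7 other libraries, with adjusted p-values of 0.0581 to 0.142: vector untreated replicate 2, vector metformin replicates 1, 2 and 3, GPD1 untreated replicate 3, and GPD1 metformin replicates 1 and 2. The difference between the 2 falls was 0.54 (SE 0.18, limma interaction adjusted p = 0.0310). That call, too, was lost without vector untreated replicate 2 or 3, vector metformin replicate 1 or 3, or GPD1 metformin replicate 1 or 3 (adjusted p = 0.0523 to 0.0714), although the value stayed between 0.47 and 0.55 there. It was lost with all libraries kept when no filter was applied (adjusted p = 0.0773). With metformin CDK4 differed between GPD1 and vector cells by 0.19 (adjusted p = 0.219), which became 0.42 (0.0128) with upper-quartile factors. Without metformin the difference was -0.35 (adjusted p = 0.0807), and it passed with summed FPKM without mitochondrial genes (-0.39, 0.0420), without vector untreated replicate 1 (-0.45, 0.04999) and without GPD1 untreated replicate 1 (-0.48, 0.0237). TSPAN31 and a gene listed under a date-like name overlap CDK4 on the other strand, with means of 1.58 and 5.20 FPKM. The ratio of CDK6 to CDK4 within a library went from 0.961 to 1.20 without metformin to 0.402 to 0.491 with it in vector cells, and from 0.982 to 1.58 to 0.456 to 0.509 in GPD1 cells. In FPKM, CDK6 was thus near or above CDK4 in untreated cells and below it with metformin. How 2 genes compare in FPKM also depends on the gene models, which are not stated, whereas the shift of the ratio does not.

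The 250 bases before the start of CDK4 (chr12:57752311-57752560, minus strand, GRCh38.p14, RefSeq), a gene known as a target of MYC through E-boxes, are shown because the letters CACGTG occurred there 3 times. Capitals mark these E-boxes and the GC boxes on either strand.
CDK4: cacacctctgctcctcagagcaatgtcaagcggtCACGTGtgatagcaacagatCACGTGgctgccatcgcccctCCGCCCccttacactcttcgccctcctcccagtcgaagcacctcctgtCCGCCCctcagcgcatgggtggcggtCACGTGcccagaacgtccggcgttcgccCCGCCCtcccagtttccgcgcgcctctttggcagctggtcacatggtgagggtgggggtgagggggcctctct
CACGTG was found 1 or more times in 6.35% of the 35116 promoters. CDK4 also held 3 GC boxes. MYC, a factor that binds this motif, had 0.667, 0.665 and 7.80 FPKM in untreated vector cells and 20.7, 20.7 and 26.2 with metformin (limma adjusted p = 0.0064). Among GPD1 libraries it had 0.868, 0.579 and 0.622 FPKM without metformin and 1.18, 18.2 and 1.20 with it (adjusted p = 0.140). Single libraries stood apart in 2 groups, vector untreated replicate 3 and GPD1 metformin replicate 2. The part of MYC in the changes of CDK4 was not tested.

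CDK2 (ENSG00000123374, chr12:55966769-55972784), the partner of the E and A cyclins, had 8.70, 6.21 and 8.50 FPKM in untreated vector cells and 2.92, 3.37 and 3.22 with metformin. Values in GPD1 cells were 4.97, 5.08 and 5.79 FPKM without metformin and 2.63, 2.50 and 2.98 with it. The treated libraries of the 2 kinds of cell overlapped and lay below all untreated ones. The mean fell 2.46-fold in vector cells (log2 fold change -1.07, limma adjusted p = 4.9e-06) and 1.95-fold in GPD1 cells (-0.76, adjusted p = 7.7e-05). Without metformin it was 1.48-fold lower in GPD1 cells than in vector cells (-0.48, adjusted p = 0.0101). The interaction was 0.31 with an adjusted p of 0.129. It passed without vector untreated replicate 2, the library at 6.21 FPKM (0.44, adjusted p = 0.0081), and with upper-quartile factors (0.46, adjusted p = 0.0314).

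CDKN1A (ENSG00000124762, chr6:36676460-36687339) was the member with the largest rise and, with metformin, the most abundant member in every library. It had 26.3, 26.7 and 28.2 FPKM in untreated vector cells and 111, 110 and 87.0 with metformin. GPD1 cells had 38.6, 34.3 and 35.0 FPKM without metformin and 186, 181 and 204 with it. The 4 groups did not overlap. The mean rose 3.78-fold in vector cells, from 27.1 ± 0.998 to 103 ± 13.5 FPKM (SD, n = 3; log2 fold change 1.87, SE 0.09, limma adjusted p = 1.3e-08). In GPD1 cells it rose 5.29-fold, from 36.0 ± 2.28 to 190 ± 12.4 FPKM (2.37, limma adjusted p = 3.5e-09). The rise was larger in GPD1 cells by 0.50 (SE 0.13, limma interaction adjusted p = 0.0088). CDKN1A was also 1.33-fold higher in GPD1 cells without metformin (log2 fold change 0.39, adjusted p = 0.0103) and 1.85-fold higher with it (0.89, adjusted p = 9.4e-06).

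CDKN1B (ENSG00000111276, chr12:12715058-12722371) rose with CDKN1A in vector cells, and its change in GPD1 cells was not called in the main fit. It had 14.2, 16.5 and 15.7 FPKM in untreated vector cells and 25.4, 26.7 and 24.9 with metformin. GPD1 cells had 13.1, 13.2 and 12.5 FPKM without metformin and 12.1, 11.1 and 12.4 with it. Again the 4 groups did not overlap, with the treated vector cells highest and the treated GPD1 cells lowest. The mean rose 1.66-fold in vector cells (log2 fold change 0.70, SE 0.06, limma adjusted p = 1.1e-06). In GPD1 cells the difference was -0.11 (adjusted p = 0.105), and its direction followed the scaling. Median-ratio factors gave 0.20 (adjusted p = 0.0148), upper-quartile factors 0.33 (7.1e-04), and the value was -0.46 (3.2e-05) when scaled to the summed FPKM without mitochondrial genes. The difference between the cells did not turn: it was -0.81 (SE 0.08, limma interaction adjusted p = 2.6e-05). With metformin CDKN1B was 2.16-fold lower in GPD1 cells than in vector cells (log2 fold change -1.05, adjusted p = 1.3e-07). Without metformin it was 1.20-fold lower (-0.24, adjusted p = 0.0154), a call lost without vector untreated replicate 2 (adjusted p = 0.0605) or 3 (0.0502) or GPD1 untreated replicate 3 (0.0580).

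The promoters of the 2 inhibitors are set side by side because their interactions had opposite signs, positive for CDKN1A and negative for CDKN1B. Each line gives the 250 bases before the start in RefSeq on the plus strand of GRCh38.p14, chr6:36678464-36678713 for CDKN1A and chr12:12717118-12717367 for CDKN1B. Both windows, and that of CDK4, lie inside the gene loci given above, and that of CCNE1 overlaps its locus. The loci of these genes thus begin upstream of the RefSeq starts used here. Capitals mark GC boxes (GGGCGG on either strand) and CCAAT boxes (CCAAT on either strand).
CDKN1A: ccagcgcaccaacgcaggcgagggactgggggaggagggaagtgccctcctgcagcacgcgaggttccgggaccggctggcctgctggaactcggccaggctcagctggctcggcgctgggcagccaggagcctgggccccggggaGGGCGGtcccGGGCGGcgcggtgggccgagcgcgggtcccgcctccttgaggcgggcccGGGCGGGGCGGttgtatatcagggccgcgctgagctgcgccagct
CDKN1B: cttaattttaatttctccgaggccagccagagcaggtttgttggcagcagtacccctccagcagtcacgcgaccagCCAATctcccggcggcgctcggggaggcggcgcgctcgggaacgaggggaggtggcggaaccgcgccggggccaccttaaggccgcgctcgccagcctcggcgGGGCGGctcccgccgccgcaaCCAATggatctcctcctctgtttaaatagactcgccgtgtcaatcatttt
CDKN1A held 4 GC boxes, the last 2 sharing 1 base, and no CCAAT box. CDKN1B held 1 GC box and 2 CCAAT boxes, and CCAAT was found 1 or more times in 32.0% of all promoters. Searches of the 4 printed windows for TTTCCCGC and TTTGGCGC (E2F), TTTGAA (the cell cycle homology region), TGACGTCA (the cyclic AMP response element), TGANTCA (AP-1) and TGTTTAC (forkhead) gave no match on either strand. Shares of all promoters with these motifs ran from 0.55% (TTTGGCGC) to 13.3% (TTTGAA). Of the 10 members, 6 were found in the promoter table.

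**Figure D2:**
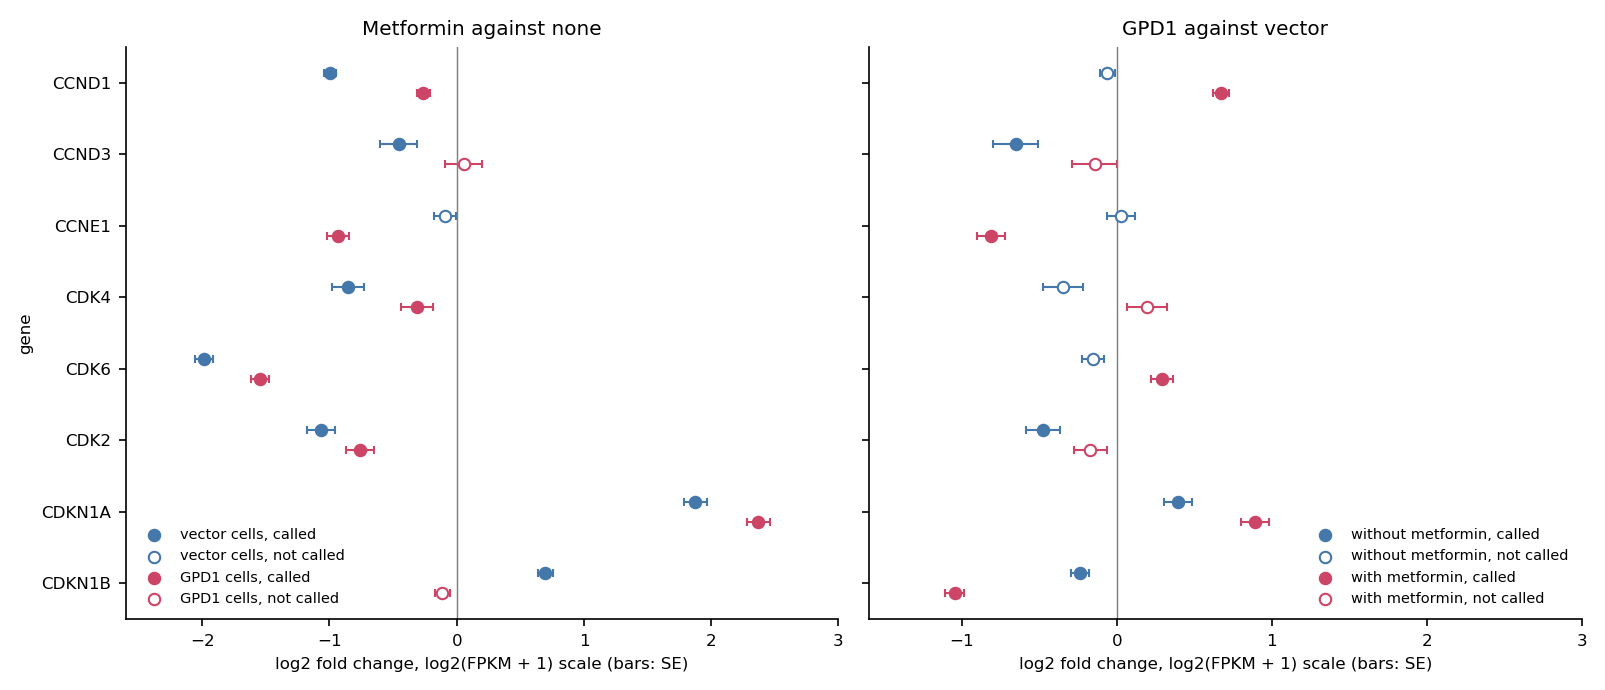
Log2 fold changes of the 8 tested members on the log2(FPKM + 1) scale, with metformin against none (left) and GPD1 against vector cells (right); bars are standard errors and filled points had a limma adjusted p below 0.05. CCND1, CCNE1 and CDKN1B show the widest gaps between vector cells and GPD1 cells on the left.

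Ratios between members within 1 library do not depend on how libraries were scaled, and they carried the same pattern. CDKN1B over CCND1 was 0.343 to 0.408 in untreated vector cells and 0.316 to 0.342 in untreated GPD1 cells. With metformin it was 1.17 to 1.35 in vector cells and 0.345 to 0.382 in GPD1 cells, so this ratio was raised in the treated vector cells. CDKN1A over CCND1 was 0.635 to 0.696 in untreated vector cells and 0.884 to 0.988 in untreated GPD1 cells. With metformin it was 4.71 to 5.50 and 5.59 to 6.28, which is high in both kinds of cell. CCNE1 over CCND1 was 0.056 to 0.072 in untreated vector cells and 0.066 to 0.069 in untreated GPD1 cells. It moved in opposite directions with metformin, to 0.107 to 0.123 in vector cells and 0.024 to 0.032 in GPD1 cells.

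CDKN1B over CDKN1A showed how the make-up of the inhibitor pool shifted. It was 0.540 to 0.618 in untreated vector cells, 0.340 to 0.385 in untreated GPD1 cells, 0.228 to 0.287 in vector cells with metformin and 0.061 to 0.065 in GPD1 cells with metformin. The summed FPKM of both inhibitors over that of the 5 cyclins was 0.742 to 0.817 and 0.969 to 1.07 in untreated vector and GPD1 cells, and 4.27 to 4.48 and 4.86 to 5.38 with metformin. The balance of inhibitor to cyclin transcript was thus high with metformin in both kinds of cell, while its components differed. In vector cells both inhibitors were high and CCND1 low, and in GPD1 cells CDKN1A was high and CCNE1 low.

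**Figure D3:**
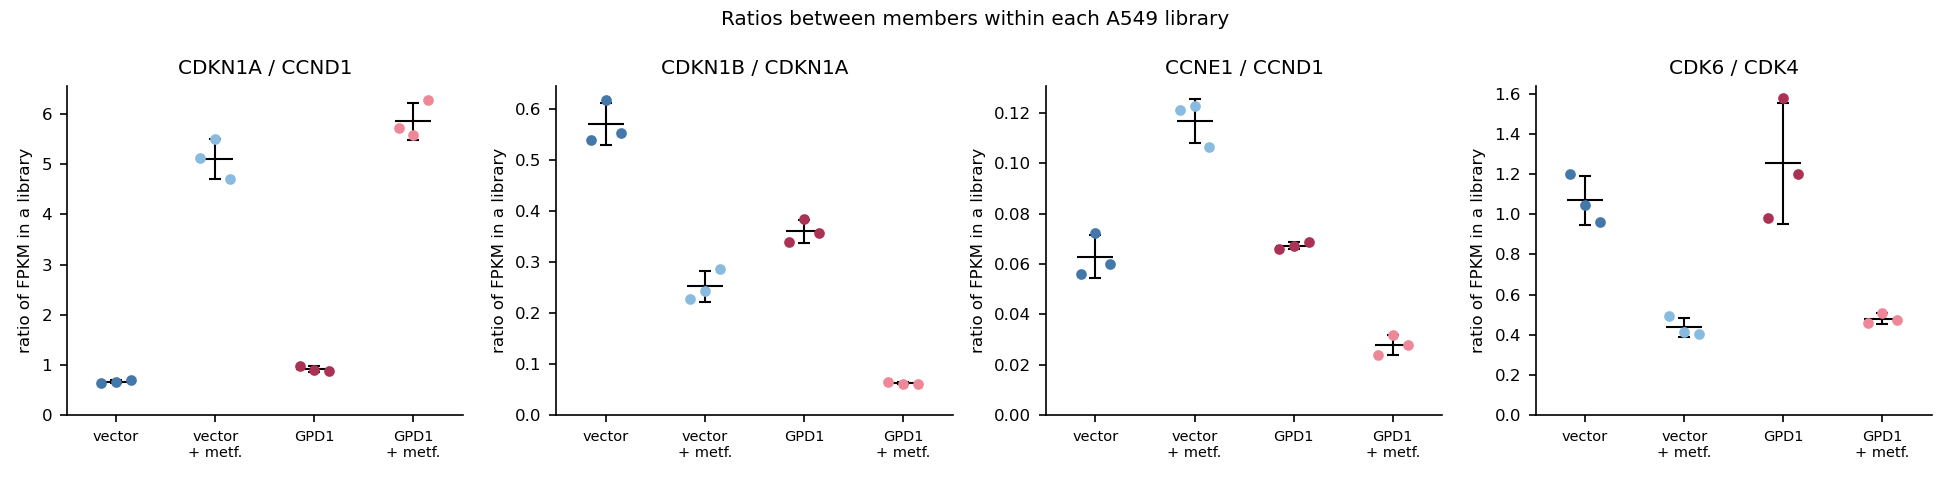
Ratios of FPKM between members within each library (points, linear axes from 0) for the 4 groups, with the group mean (wide line) and SD (bars), for CDKN1A over CCND1, CDKN1B over CDKN1A, CCNE1 over CCND1 and CDK6 over CDK4. CCNE1 over CCND1 and CDKN1B over CDKN1A are lowest in GPD1 cells with metformin (0.024 to 0.032 and 0.061 to 0.065).

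Set out by comparison, GPD1 against vector cells without metformin called 1 member higher (CDKN1A) and 3 lower (CCND3, CDK2 and CDKN1B) of 8, where 9.99% of all tested genes were higher and 11.3% lower. With metformin 3 were higher (CCND1, CDK6 and CDKN1A) and 2 lower (CCNE1 and CDKN1B), where 25% of all genes were higher and 35% lower. CDK4 joined the higher ones with upper-quartile factors. In the interaction 4 members were positive (CCND1, CDK4, CDK6 and CDKN1A) and 2 negative (CCNE1 and CDKN1B), where 19.1% and 26.8% of all genes were (45.9% in either direction). The interactions of CCND1, CCNE1, CDK6, CDKN1A and CDKN1B kept their direction and their call in every alternative run. These comparisons share libraries with one another: the GPD1 comparison with metformin and the metformin comparisons use the same treated samples.

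Other genes of the pathway were described from lists. Of 13 RB and E2F genes, 10 fell with metformin in vector cells and 10 in GPD1 cells, and 1 rose in each (E2F5, by 0.51 and 0.45). Of all tested genes 43.3% and 48% were called lower, and 31.3% and 26.1% higher. The list's median log2 fold change was -0.81 and -0.86, against -0.10 and -0.20 for all tested genes. With median-ratio or upper-quartile factors 8 fell and 3 rose in vector cells, and 9 fell and 3 rose in GPD1 cells. E2F8, a repressor E2F that is itself induced in S phase, went from 5.32 to 0.162 FPKM in vector cells (limma adjusted p = 2.9e-10) and from 4.32 to 0.198 in GPD1 cells (1.1e-09). RBL1, the p107 relative of RB1, went from 6.75 to 0.997 FPKM and from 5.81 to 1.20 (adjusted p = 1.3e-08 and 6.2e-08). RB1 itself separated the 2 kinds of cell: with metformin it was at 3.75 FPKM in vector cells and 6.55 in GPD1 cells (log2 fold change 0.67, adjusted p = 7.3e-07), and the interaction was 0.80 (adjusted p = 7.6e-06). E2F3, an activator E2F, went the other way, at 3.92 FPKM in treated vector cells and 1.23 in treated GPD1 cells (-1.14, adjusted p = 4.1e-07; interaction -0.92, adjusted p = 6.2e-05).

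Genes downstream of the G1 kinases were mostly lower with metformin in both kinds of cell. Of 10 E2F target genes of S phase, 9 fell and 1 rose in vector cells and likewise in GPD1 cells, with medians of -1.45 and -1.26. These counts, and those of the 2 lists that follow, stand against 43.3% and 48% of all tested genes called lower. The exception was CDT1, a licensing factor, which was higher by 0.42 and 0.27 but ran from -0.08 to 0.72 over the scalings in GPD1 cells. With median-ratio or upper-quartile factors 7 instead of 9 of the list fell in GPD1 cells. CDC6, which loads the replicative helicase, went from 13.8 to 2.12 FPKM in vector cells (limma adjusted p = 1.8e-10) and from 11.2 to 1.81 in GPD1 cells (4.4e-10). All 5 genes of the S, G2 and M cyclin list (CCNA2, CCNB1, CCNB2, CCNF and CDK1) fell in both, also under the 4 other scalings. With metformin 4 of these 5 were higher in GPD1 cells than in vector cells and none lower. In that comparison 25% of all tested genes were higher and 35% lower. CCNA2, the S phase partner of CDK2, had 7.20 FPKM in treated vector cells and 10.2 in treated GPD1 cells (log2 fold change 0.44, limma adjusted p = 2.0e-04). MKI67, a marker of cycling cells, went from 37.3 to 3.85 FPKM in vector cells and from 32.2 to 6.29 in GPD1 cells, and its interaction was 0.80 (adjusted p = 9.0e-04). The part that fewer cycling cells had in the members' changes was not tested. Of 6 tested genes of the DREAM and FOXM1 list, 4 fell in vector cells and 5 in GPD1 cells, MYBL2 from 52.1 to 12.4 and from 41.9 to 14.1 FPKM.

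Regulators of the members' proteins changed as well. SKP2, the F-box protein that targets p27 for degradation, fell from 2.78 to 0.551 FPKM in vector cells (limma adjusted p = 9.3e-09) and from 3.03 to 0.356 in GPD1 cells (3.3e-09). These are transcript levels, and p27 protein was not measured in these libraries. Of the 12 ubiquitin ligase genes, 8 fell and 3 rose in vector cells, and 7 fell and 3 rose in GPD1 cells. Of all tested genes 43.3% and 48% were lower, and 31.3% and 26.1% higher. In GPD1 cells the balance followed the scaling, with 5 lower and 5 higher under upper-quartile factors and 8 lower and 0 higher under summed FPKM without mitochondrial genes. FBXO31, an F-box protein that acts on cyclin D1, was at 4.87 FPKM in treated vector cells and 1.31 in treated GPD1 cells (log2 fold change -1.34, adjusted p = 6.8e-07). CDC25A, the phosphatase that activates CDK2, fell from 4.21 to 0.874 FPKM in vector cells (adjusted p = 1.3e-07) and from 3.14 to 0.168 in GPD1 cells (3.4e-08). Of the other CDK inhibitors, CDKN2C (p18, an inhibitor of CDK4 and CDK6) fell from 10.1 to 0.903 FPKM in vector cells (6.6e-11) and from 9.43 to 1.24 in GPD1 cells (2.7e-10). CDKN2C thus moved against CDKN1A. The other tested gene of that list, CDKN2D (p19), rose in vector cells from 2.84 to 4.72 FPKM (0.0019), a call lost under 1 of the 5 scalings (adjusted p = 0.0558), and in GPD1 cells it was at 3.82 and 4.90 FPKM (0.057).

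Among 12 transcription factors known to act on CCND1, CDKN1A or CDKN1B, 8 rose and 3 fell with metformin in vector cells, and 5 rose and 5 fell in GPD1 cells. Shares over all tested genes were 31.3% higher and 43.3% lower in vector cells and 26.1% and 48% in GPD1 cells. With median-ratio or upper-quartile factors 1 instead of 3 fell in vector cells. In GPD1 cells 5 rose and 3 fell with upper-quartile factors, and 3 rose and 6 fell with summed FPKM without mitochondrial genes. CEBPB, a bZIP factor, went from 96.5 to 605 FPKM in vector cells (limma adjusted p = 1.8e-10) and from 119 to 561 in GPD1 cells (8.5e-10). FOSL1, an AP-1 subunit, went from 6.61 to 26.3 FPKM in vector cells (6.8e-09) and from 6.40 to 40.2 in GPD1 cells (1.3e-09). With metformin 7 of the 12 were lower in GPD1 cells than in vector cells and 2 higher. In that comparison 35% of all tested genes were lower and 25% higher. FOXO3, a forkhead factor known to activate CDKN1B, stood at 4.78 FPKM in treated vector cells and 1.98 in treated GPD1 cells (log2 fold change -0.96, adjusted p = 2.2e-08; interaction -0.82, adjusted p = 2.5e-06). KLF4 was at 2.86 and 0.524 FPKM (-1.34, adjusted p = 2.6e-08; interaction -1.31, adjusted p = 1.3e-06). Between the treated groups CDKN1B was also lower in GPD1 cells, whereas CDKN1A and CCND1 were higher. The part of these factors in the members' changes was not tested.

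**Figure D4:**
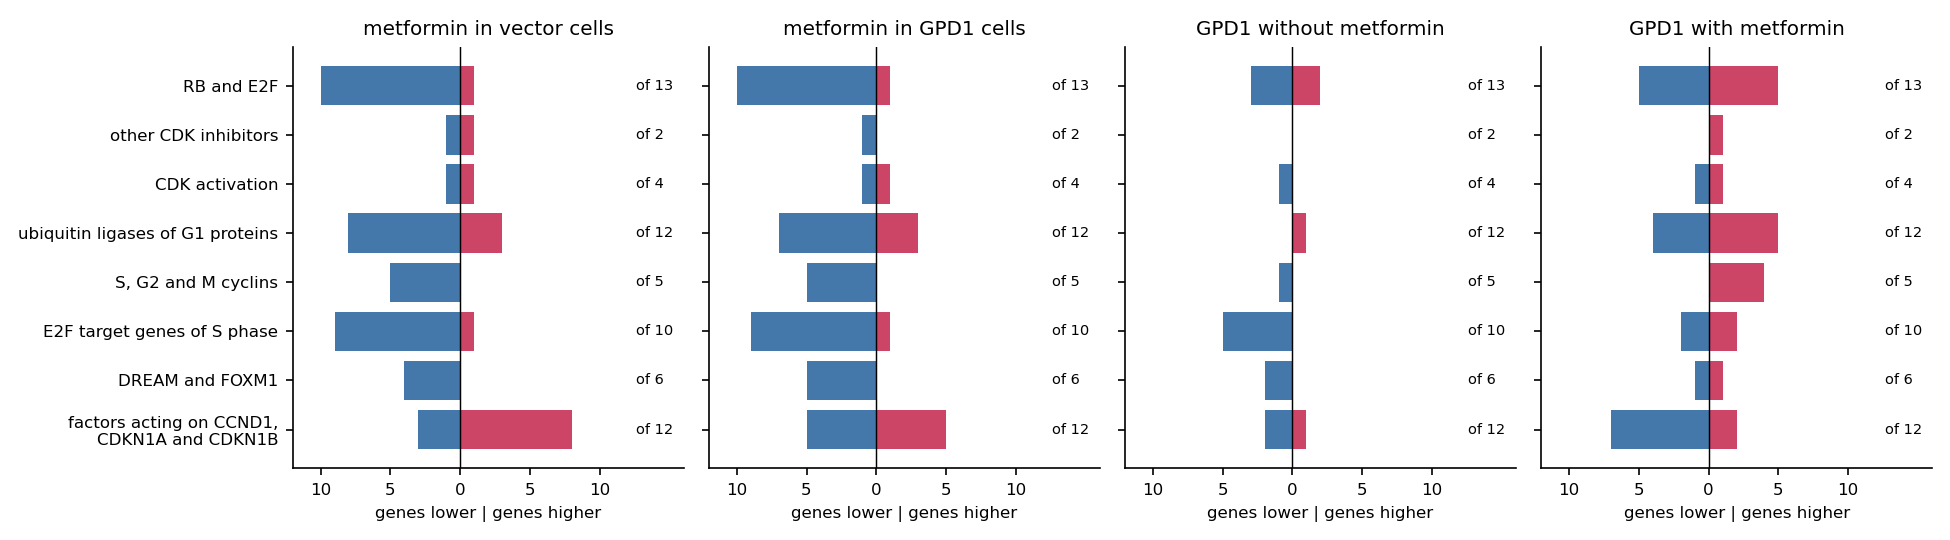
Number of genes of each pathway list called lower (bars to the left) or higher (bars to the right) by limma at an adjusted p below 0.05, in the 4 comparisons; the number tested is printed beside each list. The RB and E2F genes, the E2F target genes and the S, G2 and M cyclins lean to the left in both metformin comparisons. The CDK activation list has 1 gene on each side there. The S, G2 and M cyclins lean to the right in GPD1 cells against vector cells with metformin (4 of 5), where 25% of all tested genes were higher.

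The genes whose pattern over the 12 libraries was most like that of each member were found by Pearson's r of log2(FPKM + 1) among 4880 genes, as a description. The libraries share their groups and their scaling, so high values are common. MORC4 (r = 0.993) and XPC (0.992) lay nearest to CCND1, and MORC4 had mean values of 59.7, 32.3, 59.7 and 49.9 FPKM in vector cells without and with metformin and GPD1 cells without and with it. LARP1 (0.986) and NUDT19 (0.984) lay nearest to CCNE1, PLEKHM2 (0.986) and UGCG (0.985) to CDKN1B, and EPHA2 (0.995) and GLUD1 (0.994) to CDKN1A. EID1 (0.999) and MTOR (0.998) lay nearest to CDK6, UBE2G1 (0.974) and CPNE1 (0.970) to CDK2, and PPID (0.942) and AURKA (0.934) to CDK4. CCND3 had no gene above 0.827 (MND1), the lowest best match of the 8 members.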

How the data were processed

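Polyadenylated RNA of 12 A549 libraries was analysed. Tools named in the submitters' processing notes are HISAT2 2.1.0, CASAVA 1.8 and edgeR, with the build GRCh38 (hg38); which of them counted reads, and on which gene models, is not stated in any source used here. The single table deposited holds values that the authors normalized to FPKM, inferred from the values since its header names no unit; RPKM cannot be told apart. Depth was read from the steps between low values (64.5% to 69.3% of genes at 10 steps or fewer were whole within 0.02), using merged exon lengths of GENCODE release 29. Strand is not stated, so reads of overlapping genes cannot be separated.

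The 12607 genes averaging 1 FPKM or more were tested on log2(FPKM + 1) with limma 3.58.1 (R 4.3.3, intensity trend, two-sided) in a model of 4 group means, adjusted by Benjamini and Hochberg at 0.05. The pseudocount understates changes of weakly expressed genes. On simulated data the test recovered 84% and 90% of genes changed 1.5 and 2 times for GPD1 with metformin, with 6 false among 192 calls. Only 50 genes per size of change were altered there, all drawn from genes with a higher level than CCNE1. No shift in the make-up of the libraries was simulated, so the rates may not hold for weakly expressed genes or for the real comparisons. Alternatives were 4 scalings, no filter, a pseudocount of 0.1, only the groups compared, a replicate block, removal of a length trend, protein-coding genes alone and each library left out. Scaling to the summed FPKM without mitochondrial genes was added after seeing the data. All members were named, with up to 4 genes per list of smallest p, from which those described were taken; MYC and MKI67 were named outside that rule. The members and lists were chosen with earlier results of these data known. No 2 libraries were identical. One gene of the transcription factor list is not reported here by name.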

Additional observations from a re-analysis of the deposited data

Results flagged for a closer look

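The change with metformin differed between GPD1 cells and vector cells, by the interaction term in limma, for 6 of the 8 tested members. On the log2(FPKM + 1) scale, as GPD1 cells minus vector cells, the difference was 0.73 for CCND1 (adjusted p = 1.7e-05), 0.54 for CDK4 (0.0310), 0.45 for CDK6 (0.0043) and 0.50 for CDKN1A (0.0088). It was -0.84 for CCNE1 (3.3e-04) and -0.81 for CDKN1B (2.6e-05). Of all tested genes 45.9% had such a difference. Groups of 3 libraries were too small for the search for single outlying samples.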

How the results depend on the processing

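Scaling mattered most for metformin in GPD1 cells. There the count of members called higher was 2 with median-ratio and 4 with upper-quartile factors, against 1, and 3 instead of 5 were called lower with either. CCND1 turned to 0.0642 and 0.204, CDK4 to 0.00128 and 0.135, and CDKN1B to 0.197 and 0.331 (log2 fold changes, median-ratio then upper-quartile). CCND3, at 0.0539 in the main fit, turned to -0.0167 with totals without mitochondrial genes, -0.263 with summed FPKM without them and -0.00728 without GPD1 metformin replicate 3 (the highest value with 1 library left out was 0.137). With upper-quartile factors CCND3 kept its direction and was called higher there (0.466, limma adjusted p = 0.0174). In vector cells CCNE1, which was not called, became 0.0856 and 0.0914 with the 2 factors and was called lower with summed FPKM without mitochondrial genes (-0.348, adjusted p = 0.0042). Between untreated cells CCNE1 became -0.000722 with summed FPKM without mitochondrial genes and -0.0197 without vector untreated replicate 1 (the highest was 0.101). With metformin, GPD1 against vector cells, CCND3 became 0.0672 and CDK2 0.0102 with upper-quartile factors, and CCND3 0.0509 without vector metformin replicate 2 (the lowest was -0.259). The cause of these turns was not tested. The median change of all genes with metformin was -0.10 in vector cells (0.09 and 0.10 with the 2 factors, -0.39 with summed FPKM) and -0.20 in GPD1 cells (0.06, 0.16 and -0.47). Of called genes in GPD1 cells 35.2% were higher, against 53.7%, 61.6% and 18.0%; in vector cells it was 42.0%, against 55.7%, 56.2% and 25.2%. For GPD1 with metformin it was 41.7%, or 62.2% with upper-quartile factors, and for the interaction 41.6%, or 61.5%. Leaving out 1 library, the members called lower numbered 4 to 5 in both metformin comparisons and 2 to 4 for GPD1 without metformin, and the positive interactions 3 to 5. Same-numbered libraries did not deviate together (r from -0.0651 to 0.0561 over 18 pairs; 5 of 12 libraries correlated best with their own number). With the number as a block the CDK4 fall in GPD1 cells was not called (adjusted p = 0.0581), which left 4 members lower; it changed no other member's call. Depth limits CCND2, at 0 to 2.77 reads per library with or without metformin, and CCNE2, at 6.86 to 17.1 reads per library with metformin.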
